A study of Mus musculus with 6 samples.

Results

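The protein-coding genes of the cytosolic ribosome were followed in RNA-seq libraries of mouse cells undergoing reprogramming with and without Rnf20. They were taken from the count table by symbol: every Rpl or Rps gene with a number (with or without the endings a, x, l, al or l1), together with Rplp0, Rplp1, Rplp2 and Rpsa, leaving out rows marked as pseudogenes. This rule used no expression value and found 79 of the 16982 genes in the table. Of these, 44 were core genes of the large subunit and 30 were core genes of the small subunit. The other 5 were paralogs, related copies of a core gene, and were set apart: Rpl7l1, Rpl22l1, Rpl36al, Rpl39l and Rps27l. All 79 passed the filter on low counts. They lay on 19 chromosomes.

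The libraries came from C57BL/6 reprogrammable cells, 3 of wild-type genotype (WT) and 3 of the Rnf20-/- genotype (KO), collected on day 3 of reprogramming. Reprogrammable cells are mouse embryonic fibroblasts (MEF) given the retroviral factors OCT4, SOX2, KLF4 and C-MYC (OSKM), and both genotypes received them. The study's methods describe MEF of Rnf20 Flox/Flox; Tamoxifen-cre embryos, in which a ubiquitously expressed Cre deletes part of Rnf20 once 4-OH tamoxifen is added. The labels list the treatment of all 6 libraries as untreated and do not say whether the WT cells carried the floxed alleles or Cre or met tamoxifen. They do not say whether replicates came from separate embryos or cultures either. Y-linked RNA was present in all 3 WT libraries and in KO replicate 2 but nearly absent from KO replicates 1 and 3. The KO libraries thus did not all come from the same cells, and Y-linked RNA was not balanced between the genotypes. The p-values measure the spread between these libraries, which may be technical in part.

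Ribosomal proteins (RP) bind ribosomal RNA to form the small subunit, which reads the mRNA, and the large subunit, which joins amino acids. Each protein is needed in about equal numbers, and their mRNAs are among the most abundant of a growing cell. Most of these mRNAs begin with a C followed by a run of pyrimidines (C or T), the terminal oligopyrimidine (TOP) motif, through which mTOR signalling and LARP1 control their translation. RNF20 is the E3 ligase that places ubiquitin on histone H2B in transcribed genes.

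The start sites of a few members are shown because the pyrimidine run at the start is the feature their mRNAs are known for. Each stretch runs from 30 bases before the annotated start to the 20th base of the transcript (RefSeq, GRCm38.p6), and capitals mark the longest run of C and T between 10 bases before the start and 20 after it.
Rps6, chr4:86857348-86857397, minus strand: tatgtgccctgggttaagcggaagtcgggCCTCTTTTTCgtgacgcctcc
Rps27, chr3:90213629-90213678, minus strand: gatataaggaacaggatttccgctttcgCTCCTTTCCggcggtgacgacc
Rps10, chr17:27635225-27635274, minus strand: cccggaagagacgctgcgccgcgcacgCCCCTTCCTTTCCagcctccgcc
Rpl38, chr11:114668550-114668599, plus strand: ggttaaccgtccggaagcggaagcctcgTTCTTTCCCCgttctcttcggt
Rpl22l1, chr3:28805478-28805527, plus strand: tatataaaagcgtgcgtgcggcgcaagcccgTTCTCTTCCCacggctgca
Rps27l, chr9:66946056-66946105, plus strand: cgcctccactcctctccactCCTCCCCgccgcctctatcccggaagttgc

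Rps6, Rps27, Rps10 and Rpl38 are core genes with runs of 10, 9, 13 and 10 pyrimidines. Rpl22l1 and Rps27l are the paralogs with the lowest and the highest fold change of the members, and their runs held 10 and 7. That of Rps27l lies before the annotated start, so outside the annotated transcript, and is cut off by the edge of the searched stretch. Rps27l has 2 annotated windows, of which 1 is shown. A promoter window was given for 59 of the 79 members, 54 of them core. A gene was counted if any of its windows held the feature. Among those 54 core genes, 22 (40.7%) held a run of at least 8 pyrimidines around the start. This compares with 13.0% of 27025 genes with a window, expressed or not, and 8.7% of 69 mitochondrial RP genes. A start at C followed by 4 pyrimidines was found in 13 core genes (24.1%), in 3.01% of the 27025 genes and in 0 of the mitochondrial RP genes. The annotated start can lie some bases from the start used in these cells, which was not measured.

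The targeted gene was low in the libraries labelled KO. Rnf20 stood at 107, 107 and 106 CPM (counts scaled to a common library size after TMM, a correction for composition) in WT and at 18.7, 18.5 and 16.4 CPM in KO. The fit gave a log2 fold change of -2.57 ± 0.0812 (standard error) and adjusted p = 0.000163 by edgeR's quasi-likelihood test, adjusted over 13386 genes by the Benjamini-Hochberg method. The libraries held 20545442 to 21746898 counts each. All 8 fibroblast markers were above 1 CPM in every library, with a summed level of 26715 to 29118 CPM in WT and 17563 to 32776 CPM in KO. Of these 8, 4 had a negative and 4 a positive fold change: Thy1 and Pdgfra fell in KO, with log2 fold changes of -1.11 and -1.22 (adjusted p = 0.00251 and 0.0185, edgeR), and Vim had a value of 0.29 with every KO library above every WT library (adjusted p = 0.0577, edgeR). Of the other cell types checked, the summed level of 7 macrophage markers was 42.7 to 86.8 CPM in WT and 44.4 to 224 CPM in KO. Endothelial markers summed to 48.3 to 59.0 CPM in WT and 32.3 to 66.9 CPM in KO, with 3 of 5 (Pecam1, Cdh5 and Emcn) under 1 CPM throughout. Epithelial markers summed to 41.5 to 43.3 CPM in WT and 3.38 to 33.9 CPM in KO, with 2 of 6 (Cldn4 and Esrp1) under 1 CPM throughout. KO replicate 3 held the lowest fibroblast, endothelial and epithelial sums (17563, 32.3 and 3.38 CPM) and the highest macrophage sum (224 CPM) of all 6 libraries. Single genes carried much of these sums: in this library Tek gave 30.8 CPM of the endothelial and Lyz2 159 CPM of the macrophage sum. Col1a1, Col1a2, Col3a1, Thy1 and Pdgfra were lowest there, but Dcn was highest (243 CPM) and Vim (3614 CPM) lay above every WT library. Every macrophage marker except Cd68 (8.57 CPM) was highest there. The part of these shifts in the RP values was not tested.

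Core RP mRNAs were lower in KO as a group and by a modest amount. The main comparison asked which of them differed between the genotypes: 51 of the 74 core genes were lower in KO at an adjusted p under 0.05 and 0 were higher (edgeR), while 16.6% of all tested genes were lower and 16.4% were higher (33% changed). At an unadjusted p under 0.05, 63 core genes were lower, against 23.0% of all genes, and DESeq2 gave 58 with lower and 0 with higher levels at the adjusted limit, where 18.6% of all genes were lower. The fold change was negative for all 74, against 50% of all genes, and the median was -0.403 on the log2 scale, against 0 over all genes tested. The range over the core genes was narrow, from -0.66 to -0.12. In 61 core genes every KO library lay below every WT library, an arrangement held by 28.2% of all genes, and the opposite arrangement was found in 0 core genes and 26.6% of all genes. In the edgeR fit none of the 79 members passed the study's thresholds (adjusted p under 0.01, fold change over 2, FPKM over 1). Of all tested genes 3.59% passed them. The authors' own fold changes and FDR were not used, so these calls need not match the study's list. At an adjusted p under 0.01 alone, 18 core genes were lower, against 4.89% of all genes.

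**Figure D1:**
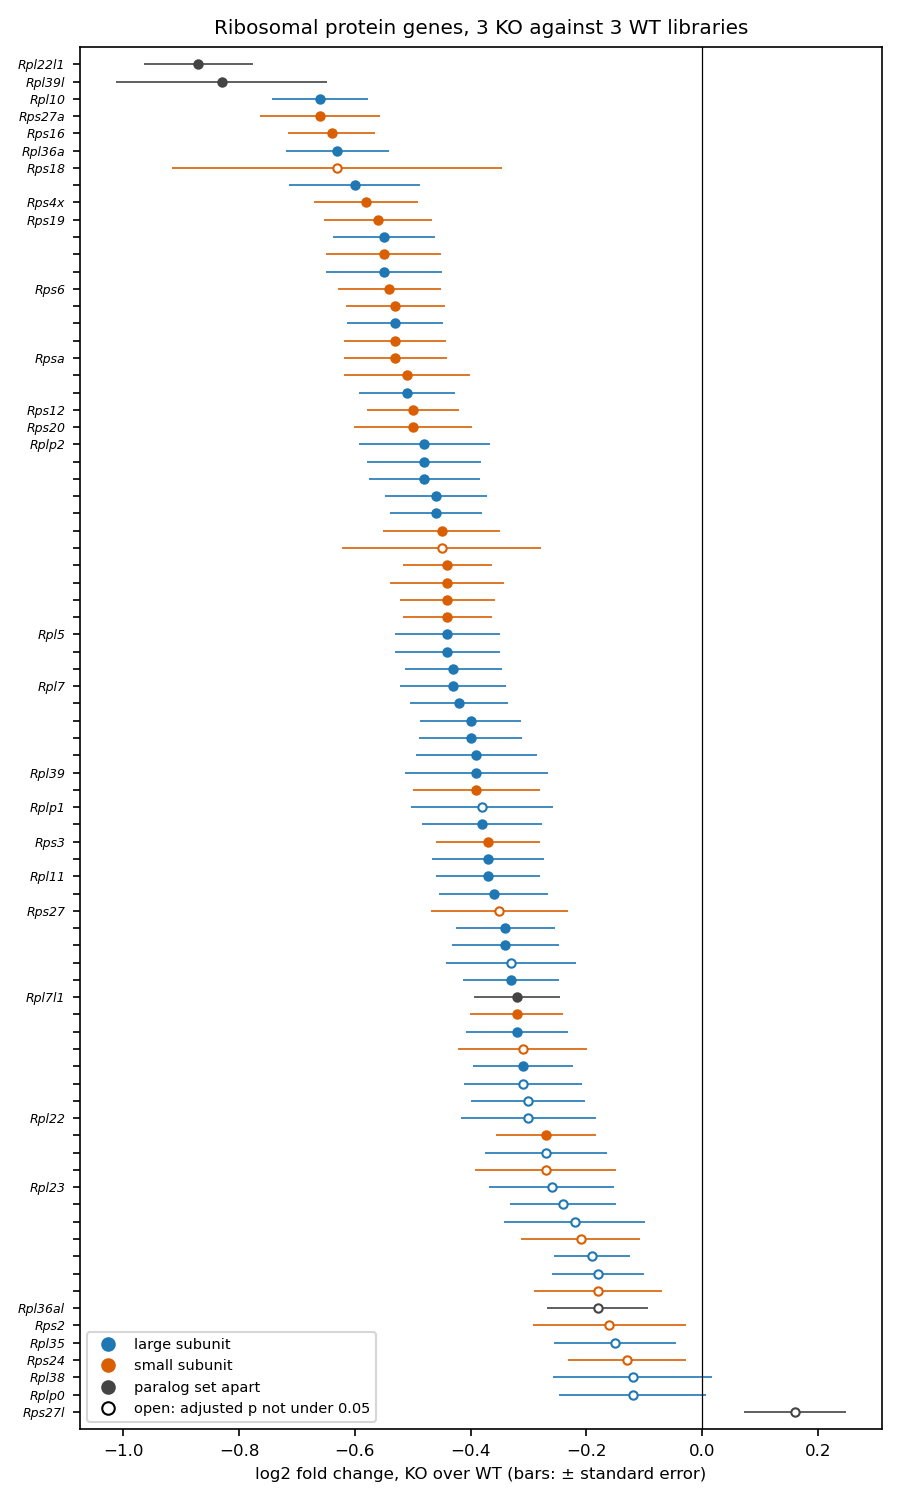
Log2 fold change of KO over WT for each of the 79 ribosomal protein genes, ordered from lowest to highest, with bars of 1 standard error (3 libraries a genotype). Symbols are given for the genes chosen by the naming rule, colours mark the large subunit, the small subunit and the paralogs, filled points passed an adjusted p of 0.05, and Rps27l alone lies to the right of 0.

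Both subunits took part. For the large subunit 30 of 44 genes were lower and the median log2 fold change was -0.377. For the small subunit 21 of 30 were lower with a median of -0.444, while 16.6% of all tested genes were lower. Whether the 2 subunits differed was not tested. The core genes together took 6.25, 6.78 and 6.75% of all counts in the WT libraries (6.60% ± 0.298, SD, n = 3) and 4.60, 4.57 and 5.20% in the KO libraries (4.79% ± 0.356, n = 3), a difference of -1.80 percentage points. All 3 KO shares lay below all 3 WT shares. The large subunit's share was 3.85% ± 0.196 in WT and 2.84% ± 0.212 in KO, and the small subunit's 2.74% ± 0.102 and 1.95% ± 0.144. These values are relative to the other RNAs of the library: no spike-in is described, and in bulk RNA fewer cells of a kind and less RNA per cell cannot be told apart.

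The KO libraries were not equally low. Taken as the median over the 74 core genes of the log2 difference from the WT mean, the WT libraries stood at -0.09, 0.07 and 0.02 and the KO libraries at -0.49, -0.44 and -0.28. In KO replicates 1 and 2 all 74 genes were below the WT mean, and in replicate 3 this held for 70. KO replicate 3, the library that also stood apart in the marker sums, with 224 CPM of macrophage markers against 42.7 to 86.8 CPM in the other 5, was thus nearest to WT, and the count of passing genes moved with it: without it 72 of 74 core genes were lower (all but Rpl38 and Rps2), while 24.2% of all genes were lower in the same fit. Leaving out WT replicate 2 or WT replicate 3 brought the count to 20 each, with 6.13% and 5.17% of all genes lower, and leaving out KO replicate 1 or 2 brought it to 32 each, with 13.4% and 11.6%. The count was 35 without WT replicate 1, with 7.31% of all genes lower. The direction stayed negative for all 74 core genes in each of these 6 fits.

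**Figure D2:**
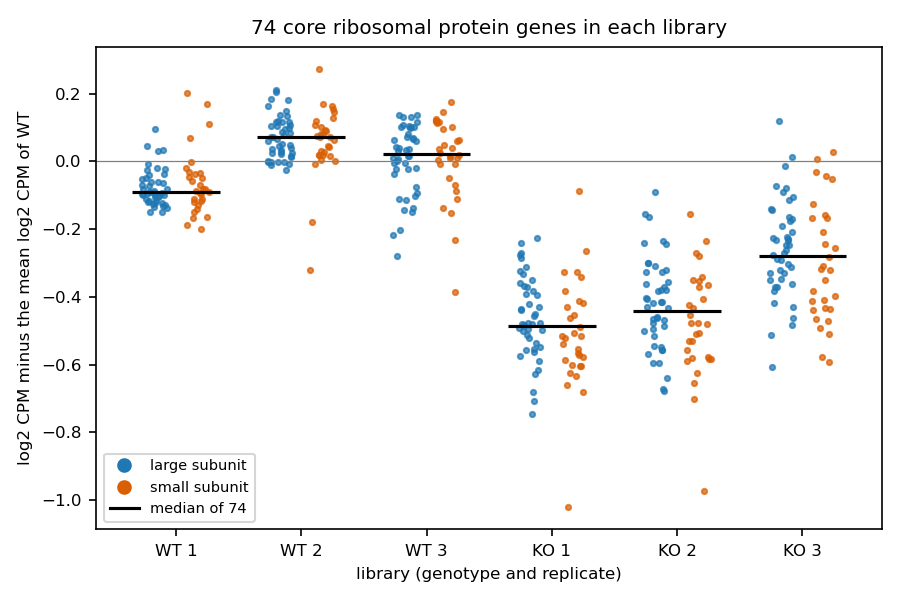
Log2 CPM of each core gene minus its mean in WT (vertical axis) in the 6 libraries (horizontal axis), with a black line at the median of the 74 genes. The KO medians lie at -0.49, -0.44 and -0.28 and the WT medians at -0.09, 0.07 and 0.02.

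The deepest falls among core genes were in Rpl10, Rps27a, Rps16 and Rpl36a. Rpl10 (chrX:74270812-74273135, plus strand, GENCODE M21 on GRCm38), a large-subunit protein that joins late in assembly, stood at 976, 1103 and 1075 CPM in WT and at 626, 674 and 689 CPM in KO (log2 fold change -0.66 ± 0.0836, adjusted p = 0.00417, edgeR). The groups were well apart, the highest KO library lying below the lowest WT library. Rps27a, made as a fusion with ubiquitin that is then cut off, stood at 632, 768 and 789.6 CPM in WT and at 453, 447 and 487 CPM in KO (-0.66 ± 0.103, adjusted p = 0.00698, edgeR). Rps16 of the small subunit was at 828, 921 and 881 CPM in WT and 554, 556 and 581 CPM in KO (-0.64 ± 0.0745, adjusted p = 0.00358, edgeR). Rpl36a of the large subunit was at 328, 360.4 and 312 CPM in WT and 203, 208 and 233 CPM in KO (-0.63 ± 0.0893, adjusted p = 0.00553, edgeR). In none of these 4 genes did the groups overlap, and 28.2% of all genes had every KO library below every WT library. All 4 passed under every alternative, with adjusted p up to 0.0324 for Rpl10, 0.0412 for Rps27a, 0.0303 for Rps16 and 0.0332 for Rpl36a (edgeR). They were picked for the lowest fold changes in the same 6 libraries, so the lack of overlap and the repeated calls follow in part from that choice.

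Rps18 had a fold change of the same size but did not pass. It stood at 1039, 723 and 979 CPM in WT and at 445, 460.1 and 870 CPM in KO (log2 fold change -0.63 ± 0.285, adjusted p = 0.133, edgeR). WT replicate 2 and KO replicate 3 were each far from the other libraries of their genotype, and the groups overlapped. Without KO replicate 3 its log2 fold change came to -1.01 (adjusted p = 0.000133, edgeR), and Rps18 was then the 1 member past the study's thresholds. The cause of the split was not tested.

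The smallest differences were in genes of both subunits. Rplp0, the base of the stalk that recruits elongation factors and a common reference gene in RT-qPCR, stood at 2250.3, 2337 and 2475 CPM in WT and at 1941, 1992 and 2555 CPM in KO (log2 fold change -0.12 ± 0.127, adjusted p = 0.482, edgeR). KO replicate 3 held the highest value of all 6 libraries, and leaving it out gave -0.26 (adjusted p = 0.00692, edgeR). Rpl38 stood at 199, 212 and 154 CPM in WT and at 155, 175 and 188 CPM in KO (-0.12 ± 0.137, adjusted p = 0.507, edgeR), so the groups overlapped. Rps2 stood at 2255, 1769 and 2019 CPM in WT and at 1886, 1557 and 1961 CPM in KO, with overlapping groups as well (-0.16, adjusted p = 0.372, edgeR). Rps24 and Rpl35 had log2 fold changes of -0.13 and -0.15 (adjusted p = 0.364 and 0.295, edgeR), and without KO replicate 3 both passed (0.0277 and 0.0396).

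The stalk genes differed in whether they passed. Rplp1 and Rplp2 pair to form the acidic stalk on Rplp0. Rplp2 stood at 452, 501 and 537 CPM in WT and at 323, 337 and 405 CPM in KO, and it fell (log2 fold change -0.48 ± 0.113, adjusted p = 0.0203, edgeR), though not without WT replicate 2 or 3 or KO replicate 1 or 2 (adjusted p up to 0.0825). Rplp1 stood at 1297, 1376 and 1541 CPM in WT and at 954, 1049 and 1241 CPM in KO. Its groups did not overlap, but its value of -0.38 ± 0.123 missed the threshold (adjusted p = 0.0549, edgeR). It passed with DESeq2 (0.0198), with library sizes alone (0.0336), with a length offset (0.0159), with the replicate block (0.0479) and without KO replicate 3 (0.000674).

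Rpl5, Rpl11 and Rpl23 bind MDM2 when ribosome assembly is disturbed. Rpl5 stood at 1071, 1232 and 1185 CPM in WT and at 832, 820.1 and 923 CPM in KO (log2 fold change -0.44 ± 0.0909, adjusted p = 0.0148, edgeR). Rpl11 stood at 623, 696 and 684 CPM in WT and at 492, 494 and 567 CPM in KO (-0.37 ± 0.0895, adjusted p = 0.0238, edgeR). Rpl23 stood at 852, 975 and 844 CPM in WT and at 682, 709 and 834 CPM in KO (-0.26 ± 0.108, adjusted p = 0.102, edgeR). Rpl5 and Rpl11 fell, with no overlap between groups, but the call was lost for Rpl5 without WT replicate 2 or 3 (adjusted p up to 0.0659) and for Rpl11 without any library except KO replicate 3 (up to 0.0907). Rpl23 did not pass, although its KO values were also all below those of WT, and without KO replicate 3 its adjusted p was 0.0023.

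Besides Rps27a, the small-subunit genes named for their roles were Rps6, Rps3, Rps19, Rpsa and Rps4x. All 5 fell with every KO library below every WT library, an arrangement held by 28.2% of all genes. Rps6, the target of S6 kinase, stood at 1132, 1261 and 1277 CPM in WT and at 806, 819 and 904 CPM in KO (log2 fold change -0.54 ± 0.0886, adjusted p = 0.00780, edgeR). Rps3, at the mRNA entry channel, stood at 1379, 1550.1 and 1468 CPM in WT and at 1086, 1085 and 1225 CPM in KO (-0.37 ± 0.0902, adjusted p = 0.0229, edgeR). Rps19, mutated in Diamond-Blackfan anaemia, stood at 636, 709 and 764 CPM in WT and at 452, 476 and 505 CPM in KO (-0.56 ± 0.0929, adjusted p = 0.00806, edgeR). Their lowest WT libraries lay above their highest KO libraries. Rpsa, which also serves as the laminin receptor precursor, stood at 2102, 2316 and 2452 CPM in WT and at 1556, 1604 and 1607 CPM in KO (-0.53 ± 0.0889, adjusted p = 0.00828, edgeR). Rps4x stood at 1282, 1489 and 1439 CPM in WT and at 920.5, 907 and 995 CPM in KO (-0.58 ± 0.0901, adjusted p = 0.00695, edgeR). Rps6, Rps19, Rpsa and Rps4x passed under every alternative, with adjusted p of at most 0.0454, whereas Rps3 missed the threshold with the replicate block (0.0595) and without any library except KO replicate 3 (up to 0.0884).

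Some members lie on the X chromosome, and the libraries differed in sex-linked RNA. The 4 X-linked core genes, Rpl10, Rpl36a, Rps4x and Rpl39, were all lower in KO, with a median log2 fold change of -0.605, and of the 70 autosomal core genes 47 were lower with a median of -0.398. Over all 463 X-linked genes tested the median was -0.093 and 21.8% were lower. Rpl39 passed by little: it stood at 240.4, 280 and 210.2 CPM in WT and at 169, 186 and 202 CPM in KO (log2 fold change -0.39 ± 0.123, adjusted p = 0.0488, edgeR), and it missed the threshold with RLE size factors (0.0530), with a filter of 1 CPM (0.0504), with the replicate block (0.0895) and whenever a library other than KO replicate 3 was left out (up to 0.145). The Y-linked gene Ddx3y was at 94.4 to 101 CPM in the WT libraries and at 128 CPM in KO replicate 2, but at 0 in KO replicates 1 and 3. KO replicate 2, the KO library with Y-linked RNA as in WT, had a core median of -0.44, between those of the other two. The part of sex in the remaining differences was not tested.

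Rps27l (chr9:66946086-66949516, plus strand, GRCm38) was the only member with a positive fold change, although it did not pass. It stood at 151, 158 and 145 CPM in WT and at 158, 163 and 188 CPM in KO (log2 fold change 0.16 ± 0.0879, adjusted p = 0.188, edgeR), with 1 KO library equal to the highest WT library in rounded CPM. Over all alternatives its value lay between 0.09 and 0.22 and its adjusted p between 0.0734 and 0.417. Rps27l is a p53 target with a protein very close to that of Rps27. Rps27 itself stood at 376, 419 and 339 CPM in WT and at 265, 291 and 336 CPM in KO (-0.35 ± 0.118, adjusted p = 0.0626, edgeR), with KO replicate 3 just under the lowest WT library. It passed with DESeq2 (0.0366), with library sizes alone (0.0372), with a length offset (0.0317) and without KO replicate 3 (0.00183). The 2 genes thus had values of opposite sign, neither past the threshold in the main comparison. Rps27l gave 40.1, 37.8 and 42.7 counts per 100 counts of Rps27 in WT and 59.4, 56.1 and 55.9 in KO, a log2 difference of 0.51.

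Rpl22l1 went the other way. This paralog (chr3:28805436-28807424, plus strand, GRCm38), which can take the place of Rpl22 in the large subunit, stood at 103, 127 and 113 CPM in WT and at 62.8, 59.7 and 65.2 CPM in KO (log2 fold change -0.87 ± 0.0948, adjusted p = 0.00328, edgeR). It had the lowest fold change of the 79 members, and the groups were far apart. The call held under every alternative, with an adjusted p of at most 0.0302. Rpl22 stood at 372, 461 and 372 CPM in WT and at 312, 307 and 363 CPM in KO (-0.30 ± 0.116, adjusted p = 0.0906, edgeR), passing without KO replicate 3 (0.00592). Rpl22l1 gave 27.7, 27.5 and 30.2 counts per 100 of Rpl22 in WT and 20.1, 19.5 and 18.0 in KO, a log2 difference of -0.57.

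The other paralogs were low in counts or moved little. Rpl39l, best known from the testis, stood at only 3.99, 4.41 and 4.51 CPM in WT and at 2.34, 2.42 and 2.48 CPM in KO (84 to 95 counts against 49 to 52), and it fell by 0.83 on the log2 scale (standard error 0.182, adjusted p = 0.0169, edgeR). Rpl7l1, a nucleolar relative of Rpl7, stood at 132, 146 and 139 CPM in WT and at 117, 112 and 105 CPM in KO, and it also fell (-0.32 ± 0.0739, adjusted p = 0.0196, edgeR). Neither call held with the replicate block or without any 1 of the WT libraries, nor did that of Rpl7l1 without KO replicate 2, with adjusted p up to 0.0753 for Rpl39l and 0.0795 for Rpl7l1. Rpl36al stood at 115, 122 and 124 CPM in WT and at 103, 98.3 and 118 CPM in KO (-0.18 ± 0.0872, adjusted p = 0.158, edgeR), passing without KO replicate 3 (0.00495). Per 100 counts of Rpl36a it gave 35.1, 33.8 and 39.7 in WT and 50.5, 47.3 and 50.4 in KO, a log2 difference of 0.45.

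A ratio inside a library does not depend on the scaling of that library. Of the 5 ratios of paralog to core gene, 4 did not overlap between genotypes: those of Rps27l and Rpl36al were higher in KO, and those of Rpl22l1 and Rpl39l lower. For the levels of single genes, 28.2% of all tested had every KO library below every WT library and 26.6% every one above. The share for ratios of other gene pairs was not measured. Rpl39l gave 1.66, 1.58 and 2.14 counts per 100 of Rpl39 in WT and 1.39, 1.30 and 1.23 in KO, a log2 difference of -0.45. Each of these 4 had p = 0.1 in a two-sided exact permutation test, the smallest p that 3 against 3 libraries allow, and 0.125 after Benjamini-Hochberg adjustment over the 5. The ratio of Rpl7l1 to Rpl7 was 11.6, 11.3 and 11.0 per 100 in WT and 13.4, 12.5 and 10.7 in KO, and its groups overlapped (p = 0.4, exact permutation test). Reads that fit a paralog and its core gene equally could have been split or dropped by the counting, which is not described in the sources used here.

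**Figure D3:**
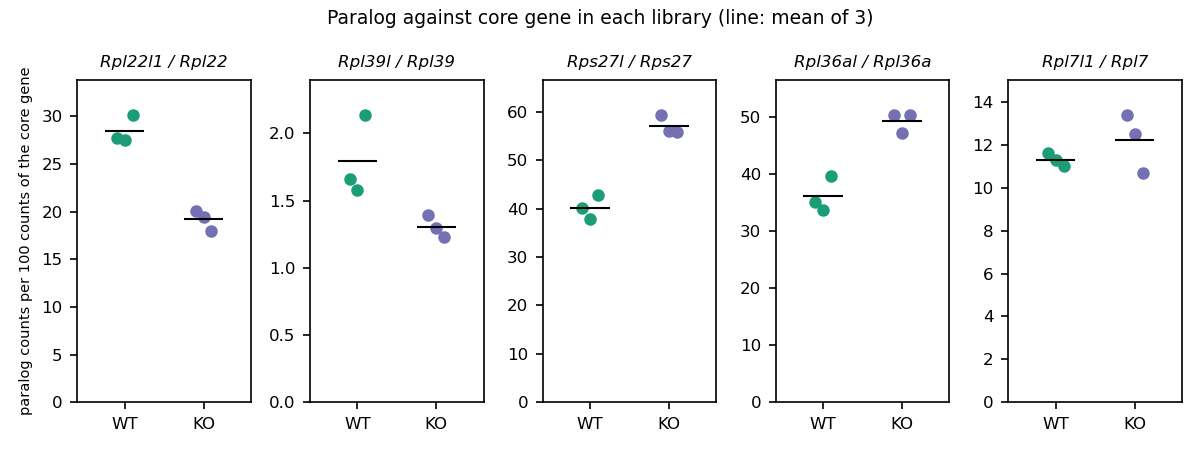
Counts of each paralog per 100 counts of its core gene (vertical axis, starting at 0) in the 3 WT and 3 KO libraries, with a line at the mean of each genotype. The points of the 2 genotypes lie apart for the first 4 pairs and overlap for Rpl7l1 and Rpl7.

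Levels between genes can be compared only per length, for which the authors' FPKM (fragments scaled to transcript length and library size) were used. The highest core genes by FPKM were Rplp1, at 7654 ± 1759.8 in WT and 5585 ± 819.9 in KO (mean ± SD, n = 3), Rps27 at 5529 ± 1143 and 3791 ± 397, and Rps12 at 3446 ± 391 and 2422 ± 237. The lowest were Rps20, at 278 ± 10.7 in WT and 194 ± 8.63 in KO, Rpl35 at 768 ± 60.9 and 694 ± 90.1, and Rpl5 at 775 ± 50.4 and 601 ± 30.5, the last pair too close to order. The order depends on the transcript length assigned to each gene: Rps20 had more counts than Rps27, with a mean of 692 against 378 CPM in WT. Of the paralogs, Rpl39l stood at 9.93 in WT and Rpl7l1 at 57.8, far under every core gene. Rpl22l1 (471), Rpl36al (519) and Rps27l (633) lay below 73 of the 74 core genes, all but Rps20. Across the 74 core genes the log2 fold change did not follow the FPKM (Pearson's r = 0.04, Spearman's rho = 0.01), a description over genes that share the same 6 libraries.

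WT replicate 3 had fewer counts of the shortest RP genes than the other WT libraries. Of the 74 core genes, 9 have a coding length under 100 codons, and in all 9 WT replicate 3 lay below the mean of WT replicates 1 and 2, by a median of -0.30 and a range of -0.58 to -0.17 on the log2 scale. In the 65 longer genes the median was 0.06, with a range from -0.22 to 0.26. Over all 74, the difference rose with coding length (r = 0.70, rho = 0.63, across genes of the same libraries). Rps29, the lowest of the 9, stood at 184, 206 and 130.5 CPM in WT and at 115, 127 and 140.2 CPM in KO, so that WT replicate 3 lay among the KO values. Of the 9 short genes 2 passed the test and 4 had no overlap between groups. Of the 65 longer ones 49 passed and 57 had no overlap. Over all genes tested 16.6% were lower, and 28.2% had every KO library below every WT library. Over the 74 genes the log2 fold change itself had r = -0.19 and rho = -0.24 with coding length, again as a description. With an offset for gene length in the fit 56 core genes were lower and 0 higher, where 16.7% of all genes were lower. The part of transcript length or RNA quality in the pattern of WT replicate 3 was not tested.

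**Figure D4:**
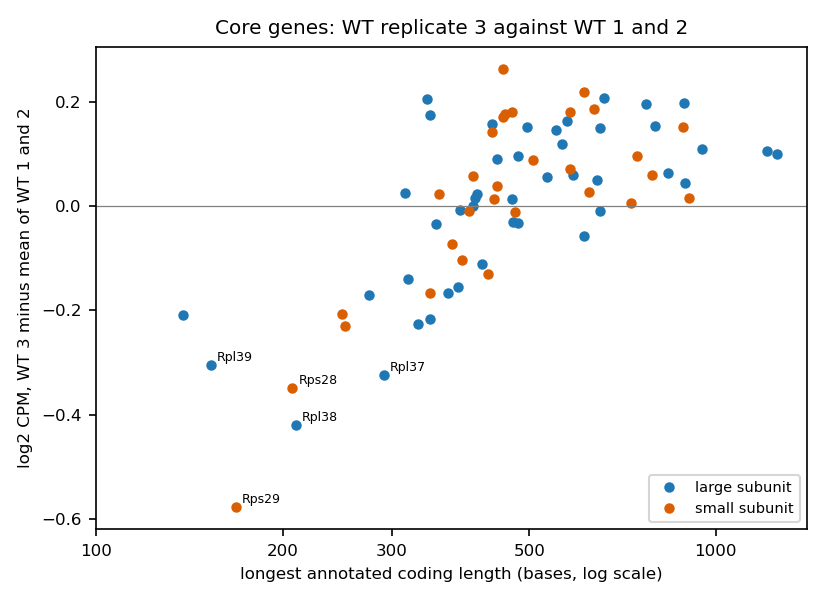
Log2 CPM of WT replicate 3 minus the mean of WT replicates 1 and 2 (vertical axis) against the longest annotated coding length in bases (horizontal axis, log scale), 1 point for each of the 74 core genes. The shortest genes lie below 0, Rps29 lowest at -0.58.

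The 23 core genes that did not pass were 14 of the large subunit, among them Rpl22, Rpl23, Rpl35, Rpl38, Rplp0 and Rplp1, and 9 of the small subunit, among them Rps2, Rps18, Rps24, Rps27 and Rps29. Each had a negative value. Missing the threshold does not show that these genes were equal between genotypes.

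Other ribosomal genes that the symbol rule leaves out fell as well. Rps3a1 of the small subunit stood at 1202, 1366 and 1384 CPM in WT and at 895, 904 and 945 CPM in KO (log2 fold change -0.53 ± 0.0856, adjusted p = 0.00766, edgeR). Fau, which encodes RPS30 fused to a ubiquitin-like protein, had a value of -0.43 (adjusted p = 0.0130), and Rack1, the signalling scaffold on the small subunit, one of -0.33 (adjusted p = 0.0340). All 3 had every KO library below every WT library, as did 28.2% of all genes, and 16.6% of all genes were lower.

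Of 17 other mRNAs of the TOP class 3 were lower and 0 were higher, with a median log2 fold change of -0.167, 14 of the 17 being negative. The share lower, 17.6%, is close to the 16.6% of all genes. Those that fell were Eif4b, an initiation factor (-0.44, adjusted p = 0.00750), Eef1b2, a subunit of the exchange factor of elongation (-0.36, adjusted p = 0.0310), and Hnrnpa1, an RNA-binding protein (-0.94, adjusted p = 0.0119, all edgeR). Eef1a1, the most abundant of the elongation factors, stood at 11127, 12022 and 11999 CPM in WT and at 9129.6, 9579 and 10702 CPM in KO, with no overlap but an adjusted p of 0.122 (-0.26, edgeR). Without KO replicate 3, 13 of the 17 changed, where 48.1% of all genes did. The difference between this list and the core genes was not tested.

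Of the mitochondrial RP genes and the initiation factors, 14.1% and 20.8% passed in either direction, against 33% of all genes. Of 78 mitochondrial RP genes 6 were lower and 5 higher, with a median log2 fold change of -0.045. Mrps16 and Mrpl48 were among those that fell (-0.47 and -0.49, adjusted p = 0.00985 and 0.0140), and Mrpl43 and Mrps6 among those that rose (0.42 and 0.40, adjusted p = 0.0379 and 0.0484, all edgeR). Of 53 tested genes with an initiation factor symbol 4 were lower and 7 higher, with a median of 0.046. The 4 that fell were Eif4b, Eif2a, the kinase Eif2ak4 and Eif4ebp2. Those that rose included Eif2s1, a subunit of the factor that brings the initiator tRNA (0.32, adjusted p = 0.0124), Eif2b2 and Eif2b3 of its exchange factor (0.37 and 0.46, adjusted p = 0.0151 and 0.0208), and Eif3j1 (0.43, adjusted p = 0.00693, all edgeR). Eif2s3x, an X-linked subunit, also rose, but at 505, 294 and 503 CPM in KO against 258, 279 and 277 CPM in WT it was high only in the 2 KO libraries without Ddx3y.

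**Figure D5:**
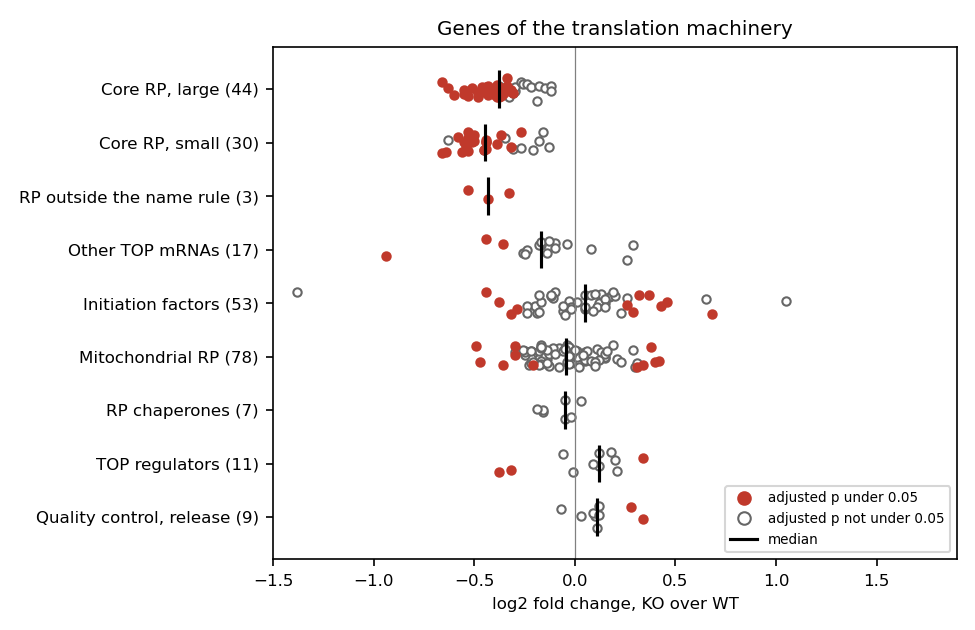
Log2 fold change of KO over WT (horizontal axis) for the genes of each list, with the number of genes in brackets, red points for an adjusted p under 0.05 and a black line at the list's median. The large and small subunit medians lie at -0.377 and -0.444, and those of initiation factors and mitochondrial RP genes at 0.046 and -0.045.

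Genes that guard, regulate or recycle ribosomes changed at shares of 0% (chaperones), 27.3% (regulators) and 22.2% (quality control and release), against 33% of all genes. None of 7 chaperones of single RP (Grwd1, Tsr2, Bccip, Heatr3, Pdcd2, Pdcd2l and Ltv1) changed at an adjusted p under 0.05, nor did any at an unadjusted p under 0.05 (edgeR), but 2 passed without KO replicate 3, where 48.1% of all genes changed. Of 11 genes that control TOP mRNAs, Mlst8 (-0.38, adjusted p = 0.0211), a subunit of mTOR complexes, and Eif4ebp2 (-0.32, adjusted p = 0.0118) were lower, and Tsc2 (0.34, adjusted p = 0.0180), an inhibitor of mTOR signalling, was higher. Larp1, which binds the TOP motif, stood at 309 to 313 CPM in WT and at 334 to 342 CPM in KO (0.12, adjusted p = 0.167, edgeR). Of 9 genes of ribosome quality control and release, Ascc2 (0.28, adjusted p = 0.0295) and Rnf10 (0.34, adjusted p = 0.0335) were higher, the latter a ubiquitin ligase for proteins of the small subunit.

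Core genes with and without a pyrimidine run at their start had fold changes of about the same size, a comparison given as a description with no test. Core genes with a run of at least 8 pyrimidines, such as those of Rps6, Rps27 and Rps10 printed above, had a median log2 fold change of -0.40 (22 genes, 13 of them lower), and those without it -0.39 (32 genes, 21 lower). For a start at C followed by 4 pyrimidines the medians were -0.35 (13 genes, 6 lower) and -0.40 (41 genes, 28 lower). Among all tested genes the share lower was 16.6%. CCGGAAG was read on both strands in windows of 300 bases, from 250 before to 50 after the start. It was present in 23 of 54 core genes (42.6%), against 37.7% of mitochondrial RP genes and 9.93% of the 27025 genes with a window. Core genes with and without it had medians of -0.39 and -0.43. CACGTG was in 9.26% of these core genes and 8.09% of the 27025 genes, GGGCGG in 59.3% and 38.2%, and AAGATGG in 14.8% and 7.28%. These are matches of letters, and no factor's binding was measured.

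The genome holds many processed copies of RP mRNAs. In the GENCODE M21 annotation 58 of the 79 members have a pseudogene named after them, and 37 share exon sequence with another annotated gene, 26 of them on the same strand, often a small nucleolar RNA. The count table held 8 rows of such pseudogenes, which took 0.013% of the counts in WT and 0.0077% in KO, and adding them to the core genes left the difference in share at -1.81 points. Reads lost to copies outside these rows could not be counted, so single members with many copies are uncertain.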

How the data were processed

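The libraries were made with a stranded mRNA kit from RNA of 3 WT and 3 KO samples, and groups and replicate numbers follow the sample titles. The authors aligned the reads with HISAT2 2.1.0 to GRCm38/mm10 and deposited a table of raw counts per gene, whose counting program and strand setting are not given in the sources used here. They also deposited FPKM, calculated by the authors with Cufflinks 2.1.1, for 12633 genes. The authors' own columns of log2 fold change and FDR were not used.

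Counts were tested with edgeR 4.0.16 in R 4.3.3: filterByExpr at its defaults kept 13386 of 16982 genes, followed by TMM factors, glmQLFit and glmQLFTest on genotype alone and Benjamini-Hochberg adjustment over all genes tested. Standard errors were derived from the F statistic of each gene and its log2 fold change. DESeq2 1.42.0 was an alternative. The scripts were tested on simulated data. Depth was 20545442 to 21746898 counts per library.

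Named genes were Rnf20, the paralogs with their core genes, a list of 14 members with known roles (Rpl13a, also on that list, was not analysed here), the 5 core genes at each end of the fold changes, the 3 highest and lowest by FPKM, and any past the study's thresholds. No core gene had a positive value, so the upper end holds the smallest falls. Rps29 and genes of other lists were chosen after their values were seen. Members and lists were chosen with earlier results of these data known. Some genes are not reported by name here. Alternatives covered the scaling, the filter, a length offset, the replicate block, the threshold and leaving out each library.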

Additional observations from a re-analysis of the deposited data

How the results depend on the processing

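Under RLE size factors, library sizes alone, TMM without RP genes, DESeq2, no filter, a filter of 1 CPM and a gene length offset, 49 to 59 core genes were lower and 0 higher, where 12.2% to 20.1% of all genes were lower. Library sizes alone moved the median of all genes by -0.06. At an adjusted p under 0.01 the count was 18. Leaving out 1 library at a time gave 20 to 72 core genes lower, lowest without WT replicate 2 or 3 and highest without KO replicate 3, and a median from -0.353 to -0.467. Past the study's thresholds these fits gave 0 to 1 members, the 1 being Rps18 without KO replicate 3. Fewer samples enter these fits, in which 10.3% to 48.1% of all genes changed. In the same fits the changed genes numbered 1 to 3 for RP genes outside the symbol rule, 1 to 13 for TOP mRNAs, 0 to 2 for chaperones, 0 to 5 for TOP regulators, 0 to 4 for quality control and release, 1 to 21 for mitochondrial RP genes and 2 to 26 for initiation factors. None of the 32 named genes reversed in direction under any alternative, and the core median stayed negative. Directions of single genes on the other lists were not compared between fits. Samples with the same replicate number did not deviate together over all genes (r = -0.0656, 0.0366 and 0.0109). Deviations from the mean of 3 libraries cannot exclude a batch shared by number. With the replicate block 39 core genes were lower, 38 of them among the 51, where 11.1% of all genes were lower.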
